A study of Mus musculus with 6 samples.

Results

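The RIKEN full-length cDNA probes of the array are the non-control probes whose own name is an accession made of AK and digits, with or without a suffix. They numbered 93 of the 59709 non-control probes, chosen by name alone. Each of the 93 names carried the suffix _P1, each accession had 1 probe, and each probe had 1 spot. The arrays were 1-colour Agilent long non-coding RNA arrays of mouse heart, and every value below came from the scanner output of 6 arrays, 2 in each of 3 groups. IPC AAR was the area at risk, the tissue next to the ligation of the left coronary artery, from mice 004 and 008 after ischemic preconditioning (IPC), which per the labels was 4 cycles of 4 min of ischemia and 4 min of reperfusion followed by 30 min of reperfusion. IPC RM was the remote myocardium of these same mice, which the methods place in the right ventricle, so ischemia and heart region cannot be told apart between IPC AAR and IPC RM. Sham AAR was the area at risk of mice 012 and 013, labelled Sham. All 4 mice were labelled Female, 12 months old and of strain C56BL7, while the methods name both sexes and strain C57BL6, and the labels and methods differ in the length of the cycles. The IPC arrays lay on 1 slide and the sham arrays on another, so treatment and slide cannot be told apart. In whole-tissue RNA, fewer cells of a type and less RNA per cell cannot be told apart either.

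Accessions that begin with AK were issued by the DNA Data Bank of Japan, and the large RIKEN collection of mouse full-length cDNAs, annotated in the FANTOM project, was deposited there. The collection was made by capturing the capped end of transcripts and sequencing the inserts, and it holds coding transcripts, antisense transcripts and many transcripts with no long open reading frame. It was an early source from which mouse long non-coding RNAs were catalogued, and array makers drew probes from it for that reason. None of the 93 accessions matched a gene in the reference tables used here (0 of 93), and the files give neither a gene, a position nor a probe sequence for them. The members are therefore named by accession, their function is not given, and whether each came from the RIKEN collection could not be checked. The heart origin of the samples could not be checked either, since 0 of 30 listed cell type markers had a named probe.

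A further 68 probes carried an AK accession only in a second name column, under a design number, and shared no accession with the 93. They served as the class most like the members. Over the whole arrays, between 36699 and 48359 of 59994 spots were well above background. The median processed signal was higher on the IPC RM arrays, at 74.0 and 80.6, than on the IPC AAR arrays, at 45.8 and 42.8, and the sham arrays had 40.0 and 49.0. The part of this difference in the results below was not tested, beyond the other scalings given beside them.

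Most of the AK probes were detected in the heart, and more of them in IPC RM than on the other arrays. Whether a spot was well above background, here called detected, was the flag of the scanner software. On the IPC AAR arrays 68 probes (73.1%, exact Clopper-Pearson 95% interval 62.9 to 81.8%) and 65 probes (69.9%, 59.5 to 79.0%) of the 93 were well above background. On the IPC RM arrays 73 (78.5%, 68.8 to 86.3%) and 76 (81.7%, 72.4 to 89.0%) were. On the sham arrays of mice 012 and 013, 58 (62.4%, 51.7 to 72.2%) and 66 (71.0%, 60.6 to 79.9%) were. Both IPC RM arrays thus held more detected AK probes than any other array, and the sham array of mouse 012 held fewest. Over all probes too the IPC RM arrays stood highest and sham 012 lowest: 68.0 and 70.6% were well above background on the IPC AAR arrays, 78.4 and 80.5% on the IPC RM arrays, and 61.0 and 72.2% on the sham arrays. Each all-probe share lay inside the interval of the AK probes on that array. These intervals cover only which probes were drawn, not the spread between mice.

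The threshold for detection moved this order. When a probe had to exceed the 99th percentile of the negative-control spots of its own array, 66.7 and 58.1% of the AK probes passed on the IPC RM arrays of mice 004 and 008, against 64.5 and 74.2% on the IPC AAR arrays and 52.7 and 67.7% on the sham arrays of mice 012 and 013. The larger number detected in IPC RM was thus lost with this threshold.

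**Figure D1:**
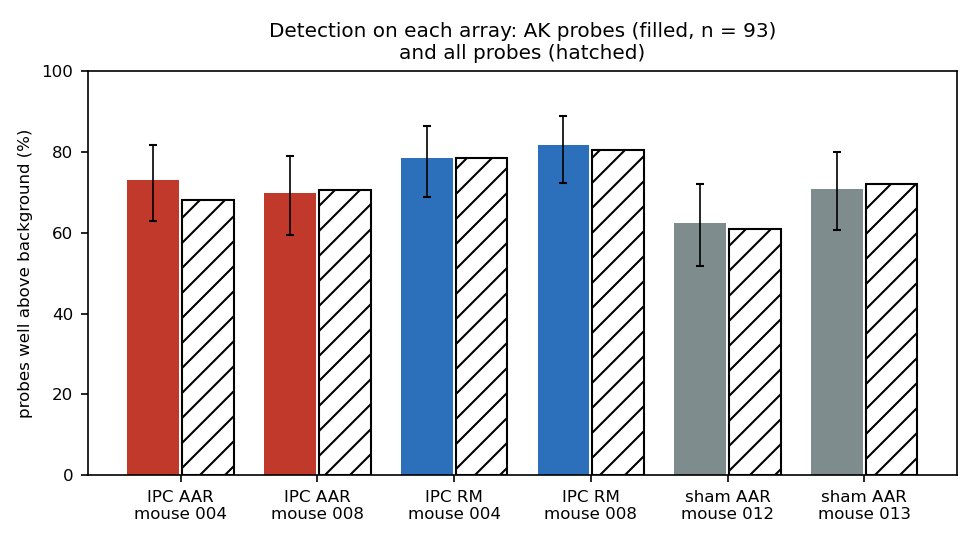
Share of probes well above background on each of the 6 arrays, in percent, with filled bars for the 93 AK probes (error bars: exact 95% intervals) and hatched bars for all 59709 probes. The AK probes ran from 62.4% on the sham array of mouse 012 to 81.7% on the IPC RM array of mouse 008, and each hatched bar ends inside the interval of the filled bar beside it.

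Across the 6 arrays, 55 of the 93 AK probes (59.1%) were well above background on every array, 11 (11.8%) on none and 27 (29.0%) on 1 to 5 arrays. Over all probes these shares were 57.9, 15.2 and 26.9%. Detection on every array was seen for 52.9% of the 68 probes with an AK accession in the second name, 44.1% of lincRNA probes, 45.4% of probes with another accession, 28.4% of ultraconserved-region probes and 63.6% of probes with an NM_ accession. The 11 AK probes detected on no array were AK039960, AK039991, AK045672, AK080331, AK082188, AK089106, AK138338, AK139568, AK156578, AK167576 and AK172441.

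By the flag of the scanner software, detection that differed between groups went mostly one way. AK002715, AK035945, AK047423, AK086399, AK145170, AK158041 and AK166279 were well above background on both IPC RM arrays and on neither IPC AAR array, which is 7 of 93 (7.53%) beside 6.77% of all probes. None of the 93 showed the reverse, beside 0.162% of all probes. Against sham AAR, 9 AK probes (9.68%, all probes 6.53%) were detected on both IPC RM arrays and on no sham array. AK015763, AK162394 and AK180019, which are among these 9, were also detected on both IPC AAR arrays, and 3.23% of the AK probes and 1.78% of all probes were detected on both IPC AAR arrays and no sham array. AK145365 alone was detected on both sham arrays and on neither IPC RM array, which is 1.08% beside 0.0536% of all probes. No AK probe was detected on both sham arrays and on neither IPC AAR array, beside 0.921% of all probes. Each of these counts rests on few AK probes, and their difference from the whole array was not tested. The flag also reached lower levels on the IPC RM arrays. After quantile normalization, described below, the lowest log2 level well above background was 2.98 and 2.73 on the IPC RM arrays. It was 4.13 and 3.88 on the IPC AAR arrays, and 4.60 and 3.51 on the sham arrays. AK158041 was thus detected at 3.58 on IPC RM 008 and not at 3.68 on IPC AAR 008. These counts were not repeated with the negative-control threshold.

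The AK probes covered nearly the whole range of brightness on the array. Levels are given as quantile-normalized log2 intensity, the log2 of the processed signal after the 6 arrays were given a common distribution. A probe's brightness also depends on its own sequence, so these levels do not order transcripts by abundance. Mean levels over the 6 arrays ran from 1.38 to 18.15 with a median of 6.10, and the 25th and 75th percentiles were 3.25 and 9.06. The median of the group means was 5.89 in IPC AAR, 5.89 in IPC RM and 6.15 in sham AAR.

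Replicate arrays of a group lay close for most AK probes that were detected on both. Among probes well above background on both arrays of a group, the median absolute difference between the arrays was 0.088 on the log2 scale in IPC AAR (63 probes), 0.10 in IPC RM (72 probes) and 0.26 in sham AAR (57 probes). The corresponding medians over all probes were 0.12, 0.13 and 0.32. Sham AAR was thus the least even group in both sets. For AK probes not detected on both arrays, the medians were larger, at 0.65 in IPC AAR (30 probes), 0.20 in IPC RM (21 probes) and 0.59 in sham AAR (36 probes). Among AK probes detected on both arrays, differences above 2-fold occurred for 2 in IPC AAR (3.17%), 1 in IPC RM (1.39%) and 6 in sham AAR (10.5%). The shares over all probes were 3.59, 1.32 and 8.64%. The IPC AAR pair were AK015763, with a difference of 2.89 on the log2 scale, and AK144422, with 1.52. In sham AAR the 6 were AK171860 (1.67), AK079567 (1.62), AK145365 (1.44), AK142793 (1.39), AK139321 (1.29) and AK135967 (1.17).

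Several of the brightest AK probes had much the same quantile-normalized level in the 3 groups, while 75th percentile scaling, which takes only the 75th percentile of each array as common, set the IPC AAR arrays above the IPC RM arrays. AK215547 had normalized log2 levels of 18.23 and 18.13 on the IPC AAR arrays, 18.22 and 18.20 on the IPC RM arrays, and 18.16 and 17.98 on the sham arrays. AK198651 had 16.95 and 16.98, 16.92 and 16.92, and 17.13 and 17.08 in the same order of groups. AK182289 had 12.60 and 12.54, 12.66 and 12.57, and 12.55 and 12.52. For these probes all 6 arrays lay within a narrow band after quantile normalization. That step sets equal ranks to equal levels, so the band is not independent of it. Processed signals ran from 221536 to 345300 for AK215547 and from 109542 to 162706 for AK198651. Under 75th percentile scaling the IPC AAR minus IPC RM differences were 0.95 for AK215547 (limma adjusted p = 0.0044), 1.20 for AK198651 (limma adjusted p = 0.00301) and 0.53 for AK182289 (limma adjusted p = 0.023). The other bright probes were AK188366, AK216629, AK210533, AK217121, AK147535, AK201409 and AK122515. AK188366 stood higher in IPC RM, with 17.80 and 17.83 against 17.21 and 17.27 in IPC AAR and 17.34 and 17.36 in sham AAR. Its IPC AAR minus IPC RM difference was -0.58 (limma, adjusted p = 0.0111), under 2-fold. AK147535 was higher in IPC AAR, with 14.57 and 14.61 against 14.05 and 14.05 in IPC RM, and its difference was 0.54 (limma, adjusted p = 0.0122), again under 2-fold. Under 75th percentile scaling it was 1.40 (limma adjusted p = 0.00224), and AK147535, AK216629 (1.26), AK198651 and AK210533 (1.15) were then called higher in IPC AAR. Under that scaling AK215547, AK188366, AK210533, AK217121, AK182289 and AK122515 changed sign, all from a negative to a positive difference. Both the size and the direction of the differences of the brightest probes thus depended on the scaling. The 6 housekeeping genes with a named probe had 1 probe each. Under 75th percentile scaling their IPC AAR minus IPC RM differences were 1.11 for Gapdh, 1.15 for Ppia and 1.32 for Actb. Those of B2m, Hprt and Tbp were 1.57, 0.74 and -0.57. With quantile normalization the 6 were 0.13, 0.0016, 0.51, 0.42, -0.04 and -0.58 in the same order. Why the scalings differ was not tested.

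The comparison of the area at risk with the remote myocardium asked which transcripts differed locally after preconditioning. Of the 93 AK probes, 72 were detected on each array of IPC AAR, of IPC RM or of both, and were tested. A probe was called when its Benjamini-Hochberg adjusted p from limma, over all 46232 probes tested, was under 0.05 and its fold change above 2. By this rule 16 of 72 AK probes were called (22.2%), where the share of all tested probes called was 20.6%. Of these, 7 were higher in IPC AAR (9.72%, all probes 7.29%) and 9 lower (12.5%, all probes 13.3%). The share of called AK probes was near that of the array. The other classes had 12 of 51 called (23.5%) for AK accessions in the second name, 21.6% for design numbers, 17.5% for ultraconserved regions, 11.8% for NM_ accessions, 11.3% for lincRNAs and 10.6% for other accessions. The p-values rest on the spread between 2 samples a group, which limma draws toward that of all tested probes. This fit treated the IPC AAR and IPC RM arrays as independent, though they came from the same mice.

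The median log2 difference of the 72 was 0.08, and that of all tested probes 0.20. The groups did not overlap for 56 of 72 (77.8%), beside 79.7% of all tested probes, with 34 higher (all probes 49.6%) and 22 lower (all probes 30.0%) in IPC AAR. A further 21 AK probes passed the adjusted p but not 2-fold, 15 higher and 6 lower. With or without 2-fold, 37 of 72 AK probes passed the adjusted p, beside 22746 of all 46232 tested probes. Of these, 16 and 9505 were called, so such probes were common on the whole array too. Among the 72, 42 (58.3%) differed by under 1.5-fold, a share that was not counted for all tested probes. Under 75th percentile scaling, which moved the median of all probes to 0.33, 20 AK probes were called beside 26.1% of all tested probes, 13 of them higher and 7 lower, so 65% were higher rather than 43.8%. Without the IPC RM array of mouse 004 or that of mouse 008, 9 were called each time (all probes 10.6 and 11.3%), 5 higher and 4 lower, and the calls of AK029714, AK052246, AK018881, AK040631, AK139572, AK136056 and AK201409 were lost. An exact two-sided permutation test of 2 arrays against 2 cannot give a p below 0.333, so none was used for single probes.

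AK132675 had the largest difference in favour of the area at risk. Its normalized log2 levels were 8.97 and 9.15 on the IPC AAR arrays of mice 004 and 008, 6.09 and 5.59 on the IPC RM arrays, and 6.59 and 6.43 on the sham arrays. Before normalization its processed signals were 414 and 464, 95.5 and 72.7, and 73.7 and 78.8. Both IPC AAR arrays stood apart from the other 4. The IPC AAR minus IPC RM difference was 3.23 (SE 0.22, limma adjusted p = 0.00322), a 9.36-fold higher level.

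AK090059 followed, with 8.33 and 8.54 in IPC AAR, 6.38 and 6.38 in IPC RM, and 7.26 and 6.75 in sham AAR. Its processed signals were 266 and 298, 117 and 126, and 117 and 97.9. The groups did not overlap, and IPC AAR was 2.05 higher than IPC RM on the log2 scale (SE 0.11, limma adjusted p = 0.0021). AK039249 had 7.68 and 7.86 in IPC AAR, 6.03 and 6.09 in IPC RM, and 6.64 and 6.71 in sham AAR. Its difference from IPC RM was 1.72 (SE 0.10, limma adjusted p = 0.00259), with IPC AAR again above all other arrays. AK029714 had 6.07 and 6.31 in IPC AAR, 4.61 and 4.33 in IPC RM, and 5.67 and 4.87 in sham AAR, where the sham arrays lay between. Its difference was also 1.72 (SE 0.16, limma adjusted p = 0.00555).

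The other probes called higher moved by less. AK053279 had 10.12 and 10.14 in IPC AAR and 8.78 and 8.67 in IPC RM, with 9.62 and 9.38 in sham AAR. AK038804 had 9.45 and 9.47 in IPC AAR and 8.24 and 7.92 in IPC RM, with 8.42 and 7.94 in sham AAR. AK052246 had 7.06 and 7.24 in IPC AAR and 5.86 and 5.91 in IPC RM, with 6.28 and 5.48 in sham AAR. In each, both IPC AAR arrays exceeded the other 4. The log2 differences from IPC RM were 1.40 for AK053279 (limma adjusted p = 0.00262), 1.38 for AK038804 (limma adjusted p = 0.0070) and 1.27 for AK052246 (limma adjusted p = 0.00441). All 7 probes called higher were well above background on all 6 arrays.

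**Figure D2:**
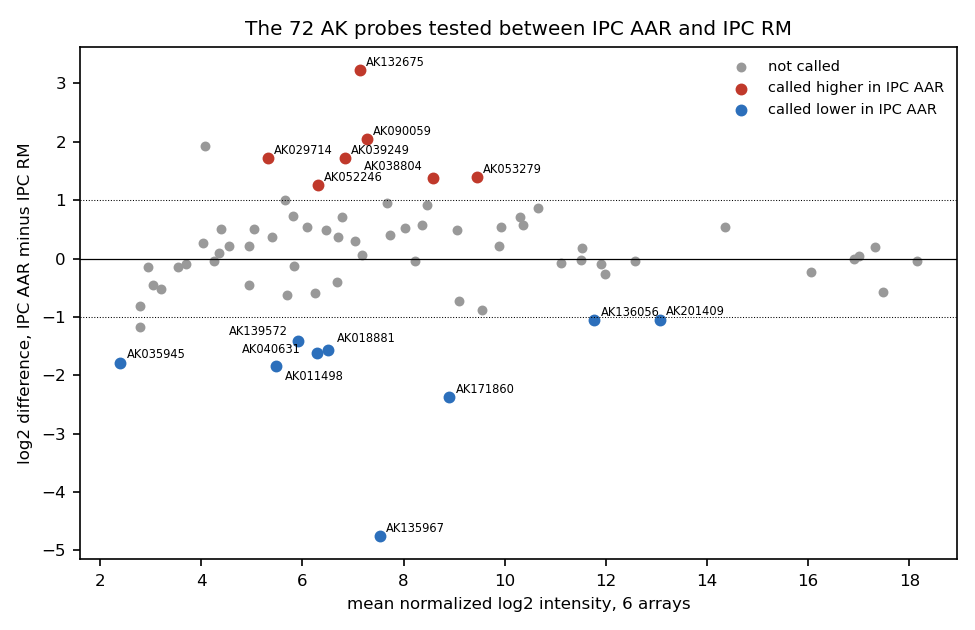
Log2 difference of IPC AAR minus IPC RM against the mean normalized log2 intensity over the 6 arrays, for the 72 AK probes tested, with dotted lines at 2-fold. The 7 probes called higher reach 3.23 and the 9 called lower reach -4.75, and all but 2 of the points not called lie within the dotted lines.

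AK135967 had the largest difference of any AK probe and was lower in the area at risk. Its normalized log2 levels were 3.97 and 4.57 on the IPC AAR arrays, 9.12 and 8.92 on the IPC RM arrays, and 8.71 and 9.89 on the sham arrays. Processed signals were 13.5 and 19.6, 804 and 716, and 326 and 843. Both IPC AAR arrays were far below the other 4, and on that of mouse 004 the probe was not well above background, so 1 of 2 arrays measured it there. The difference was -4.75 (SE 0.25, limma adjusted p = 0.0022), 26.9-fold lower in IPC AAR. With normexp background correction of median signals and an offset of 50 it was -2.74. An offset added to every signal by itself shrinks a log2 difference that involves dim signals. The size of the fold thus depended on the processing, and the part of the background correction was not tested. It could not be tested under the stricter filter that asked for detection on all arrays compared.

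AK171860 had 7.82 and 7.94 in IPC AAR and 10.33 and 10.18 in IPC RM. Its sham arrays disagreed, with 7.75 for mouse 012 and 9.42 for mouse 013. Processed signals were 188 and 195, 1803 and 1608, and 165 and 612. IPC RM was highest, while IPC AAR lay between the sham arrays. The IPC AAR minus IPC RM difference was -2.37 (SE 0.10, limma adjusted p = 0.00155), 5.19-fold lower. AK011498 had a similar arrangement, with 4.75 and 4.83 in IPC AAR, 6.69 and 6.57 in IPC RM, and 3.92, not well above background, and 6.15 in sham AAR. Its difference from IPC RM was -1.84 (SE 0.09, limma adjusted p = 0.0019), and the call was lost with all 6 arrays in 1 fit (limma adjusted p = 0.125).

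AK040631, AK018881 and AK139572 were lower in IPC AAR than on any other array. AK040631 had 4.86 and 5.38 in IPC AAR, 6.87 and 6.60 in IPC RM, and 6.76 and 7.23 in sham AAR. AK018881 had 5.47 and 5.75, 7.27 and 7.09, and 6.98 and 6.51. AK139572 had 4.85 and 5.20, 6.40 and 6.46, and 6.22 and 6.32. In these 3 the sham and IPC RM arrays lay near each other. Their differences of IPC AAR minus IPC RM were -1.62 (limma adjusted p = 0.0136), -1.57 (limma adjusted p = 0.00568) and -1.41 (limma adjusted p = 0.00763).

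AK136056 and AK201409 were bright probes that passed 2-fold narrowly. AK136056 had 11.14 and 11.18 in IPC AAR, 12.23 and 12.22 in IPC RM, and 11.94 and 11.92 in sham AAR. AK201409 had 12.42 and 12.46, 13.47 and 13.50, and 13.13 and 13.38. IPC AAR was lowest in both, by 1.06 and 1.04 against IPC RM in size of the log2 difference. Neither was called under 75th percentile scaling.

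AK035945 was called lower but was dim. Its levels were 1.41 and 1.40 on the IPC AAR arrays and 2.37 and 2.85 on the sham arrays, not well above background on any of these, and 3.26 and 3.11 on the IPC RM arrays. The difference of -1.78 (limma adjusted p = 0.00203) was therefore not turned into a fold change.

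With normexp background correction in place of the scanner's processed signal, 9 of the 16 AK probes were called, beside 10.9% of all tested probes. Differences became smaller for dim probes and also for probes well above background on all 6 arrays. The setting also used median signals and an offset of 50, and an added constant by itself shrinks log2 differences of dim probes. Smaller differences and lost calls therefore cannot be laid to the background correction alone. Those of the bright AK136056 (-1.03) and AK201409 (-1.05) hardly changed. The normexp difference was 2.29 for AK132675 and 1.1 for AK039249, which were called. It was 0.67 for AK029714, -0.91 for AK011498, -0.24 for AK035945, -0.79 for AK040631, -0.95 for AK018881 and -0.61 for AK139572, which were not. The call of AK052246 was lost as well.

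**Figure D3:**
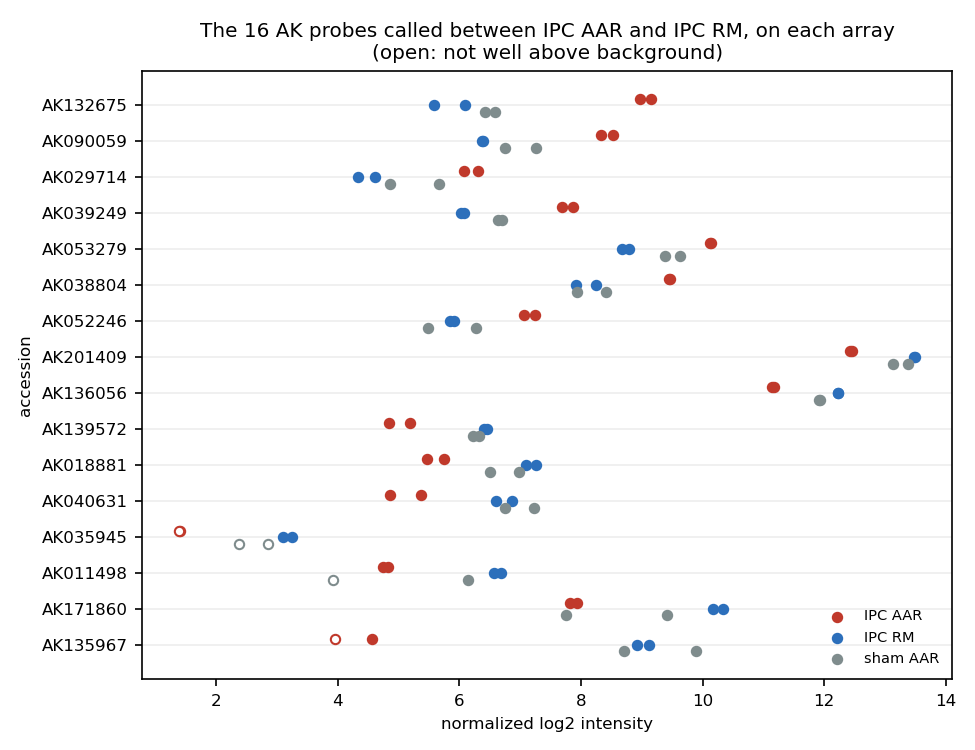
Normalized log2 intensity on each of the 6 arrays for the AK probes called between IPC AAR and IPC RM, with 1 point per array, coloured by group, and open points where the probe was not well above background. The IPC AAR points of AK135967, at 3.97 and 4.57, lie far from the other 4, and those of AK132675, at 8.97 and 9.15, lie above them.

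The comparison of the area at risk between preconditioned and sham mice asked what differed with treatment in the same region. Here 65 AK probes were tested and 9 were called (13.8%), beside 8.56% of all 40161 tested probes. Of these, 5 were higher in IPC AAR (7.69%, all probes 2.78%) and 4 lower (6.15%, all probes 5.78%). In the class most like the members, with an AK accession in the second name, 0 of 41 were called. The shares called were 9.01% for design numbers, 6.45% for ultraconserved regions, 4.64% for other accessions, 4.42% for lincRNAs and 1.22% for NM_ accessions. Whether the share of the AK probes differed from these or from the whole array was not tested. The median log2 difference was 0.11 for the AK probes and 0.23 for all probes, and the groups did not overlap for 43 (66.2%, all probes 71.7%), with 25 higher (all probes 46.7%) and 18 lower (all probes 25.0%). The count was unstable: 0 were called without the IPC AAR array of mouse 004, 1 without that of mouse 008, 20 without the sham array of mouse 012 and 2 without that of mouse 013. The share of all tested probes called moved in the same way, to 0.635, 1.31, 22.6 and 5.24%. With the methods' t-test, 0 of 65 AK probes and 2 of all 40161 probes were called. Its unadjusted p was under 0.05 for 20 AK probes and for 10243 of all. With no filter on dim probes, limma called 0 of 93 AK probes and 0 of all 59636. Its unadjusted p was then under 0.05 for 26 AK probes and for 15743 of all.

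AK132675, AK090059, AK039249 and AK038804 were called higher in IPC AAR in this comparison too. Their differences of IPC AAR minus sham AAR were 2.55 (SE 0.17, limma adjusted p = 0.0164), 1.43 (SE 0.24, limma adjusted p = 0.0485), 1.1 (SE 0.16, limma adjusted p = 0.0372) and 1.28 (SE 0.22, limma adjusted p = 0.0497). For AK132675 this was a 5.87-fold higher level. AK135967, AK040631 and AK139572 were called lower, by -5.03 (SE 0.49, limma adjusted p = 0.0232), -1.87 (SE 0.29, limma adjusted p = 0.0411) and -1.25 (SE 0.19, limma adjusted p = 0.041). For AK135967 the level was 32.7-fold lower, with 1 of the 2 IPC AAR arrays not well above background, and normexp gave a log2 difference of -2.98. Normexp also gave 1.89 for AK132675 and -1.02 for AK040631, and the calls of AK039249, AK038804, AK139572, AK180019 and AK187245 were lost with it. These 7 probes were thus called in both comparisons, which share the IPC AAR arrays and so are not independent of each other. The share of all probes called in both was not counted, so these 7 are not set against the whole array. Of the 7, AK132675 and AK135967 were called without the sham array of mouse 013, AK135967 without the IPC AAR array of mouse 008, and none without that of mouse 004.

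**Figure D4:**
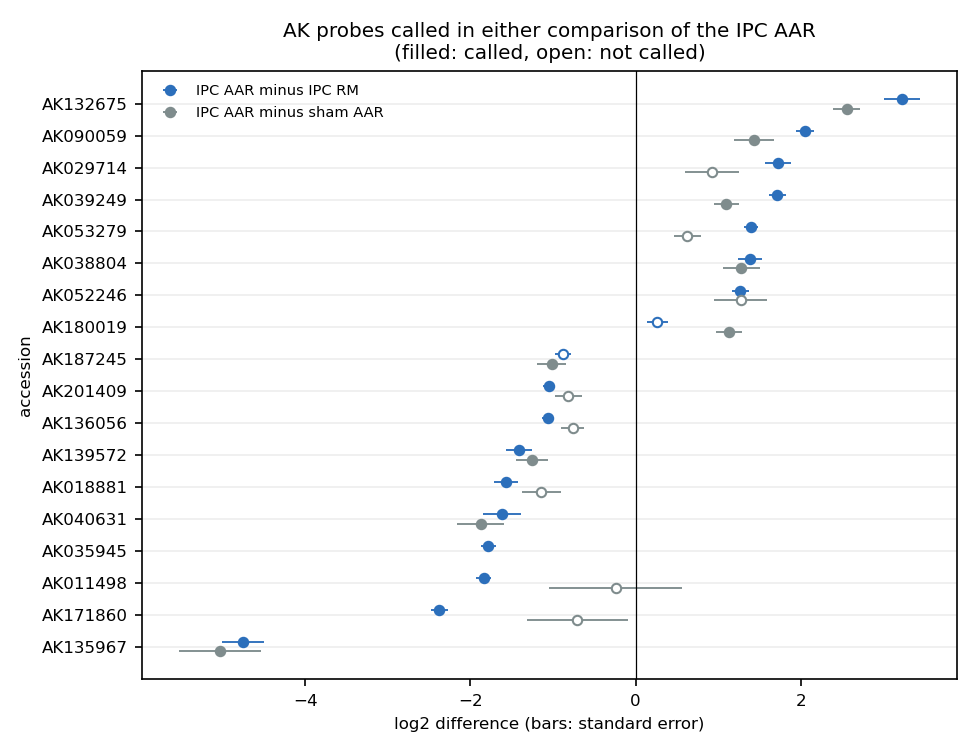
Log2 differences of IPC AAR minus IPC RM (blue) and IPC AAR minus sham AAR (grey), with standard errors as bars, for each AK probe called in either comparison; filled points were called and open points were not, and both comparisons use the same IPC AAR arrays. AK135967 lies at -4.75 and -5.03 and AK132675 at 3.23 and 2.55, while the grey bars of AK171860 and AK011498 are wide; AK035945 was not tested against sham AAR.

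Other probes called between IPC AAR and IPC RM were not called against sham AAR. AK053279 differed by 0.62 (limma adjusted p = 0.0904), AK029714 by 0.92 (limma adjusted p = 0.139) and AK052246 by 1.27 (limma adjusted p = 0.0857). AK171860 differed by -0.71 (SE 0.61, limma adjusted p = 0.431) and AK011498 by -0.24 (SE 0.81, limma adjusted p = 0.838), both with sham arrays far apart. AK018881 (-1.14, limma adjusted p = 0.0667), AK136056 (-0.76, limma adjusted p = 0.0548) and AK201409 (-0.81, limma adjusted p = 0.0641) had the same direction as against IPC RM. Missing the threshold here does not show that these probes were alike in IPC AAR and sham AAR.

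AK180019 and AK187245 were called only against sham AAR, without a test of the difference between the comparisons. AK180019 had 4.39 and 4.59 in IPC AAR, 4.32 and 4.14 in IPC RM, and 3.31 and 3.41 in sham AAR, where it was not well above background. Its difference from sham AAR was 1.13 (limma adjusted p = 0.0374), at least 1.35-fold higher when the sham level was set to the lowest signal well above background on each sham array. The IPC AAR minus IPC RM difference was 0.26 (limma adjusted p = 0.167). AK187245 had 8.83 and 9.0 in IPC AAR, 9.78 and 9.80 in IPC RM, and 9.81 and 10.05 in sham AAR. It was 1.02 lower than sham AAR in size of the log2 difference (limma adjusted p = 0.0496). Against IPC RM its difference was -0.88 (limma adjusted p = 0.00809), which passed the adjusted p but not 2-fold.

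Between the remote myocardium of preconditioned mice and the area at risk of sham mice, which differ in both region and treatment, 73 AK probes were tested and 0 were called by limma, beside 0% of all 46061 probes. An unadjusted limma p under 0.05 was found for 15 AK probes (20.5%) and for 7554 of all probes (16.4%). The methods' t-test called 0 AK probes and 0 of all 46061. Its unadjusted p was under 0.05 for 14 AK probes and for 6322 of all. The groups did not overlap for 45 (61.6%, all probes 54.3%), 19 higher (all probes 28.0%) and 26 lower (all probes 26.3%) in IPC RM. Without the sham array of mouse 012, 3 were called (all probes 6.73%), and without that of mouse 013, 11 (all probes 14.2%).

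AK007918 had the smallest adjusted p of this comparison among the AK probes. Its levels were 9.44 and 9.35 on the IPC RM arrays, 11.13 and 11.67 on the sham arrays, and 10.03 and 10.18 on the IPC AAR arrays. The groups did not overlap, and IPC RM minus sham AAR was -2.00 (SE 0.24, limma adjusted p = 0.163). AK033774 differed by -1.02 (limma adjusted p = 0.185), AK154456 by -0.99 (limma adjusted p = 0.218), AK053279 by -0.77 (limma adjusted p = 0.214) and AK039249 by -0.62 (limma adjusted p = 0.224). On the other side stood AK145170 at 1.67 (limma adjusted p = 0.255), AK162394 at 0.97 (limma adjusted p = 0.191), AK201860 at 0.92 (limma adjusted p = 0.185), AK180019 at 0.87 (limma adjusted p = 0.192) and AK133000 at 0.86 (limma adjusted p = 0.197). Among the probes called higher in IPC AAR than in IPC RM, AK132675 (-0.67, limma adjusted p = 0.305), AK090059 (-0.62, limma adjusted p = 0.321) and AK029714 (-0.80, limma adjusted p = 0.35) also had both IPC RM arrays below both sham arrays. Of those called lower, AK171860 (1.67), AK011498 (1.60), AK035945 (0.57), AK018881 (0.43), AK136056 (0.30), AK201409 (0.23) and AK139572 (0.16) had both IPC RM arrays above both sham arrays. AK135967 (-0.28, limma adjusted p = 0.777), AK040631 (-0.26), AK038804 (-0.10) and AK052246 (0.0067) had groups that overlapped. The calls used the same IPC RM arrays, so these directions are not independent of the calls.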

How the data were processed

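Per the labels and file headers, the authors hybridized Cy3-labelled RNA of 6 cardiac biopsies to 1-colour arrays and deposited the output of Agilent Feature Extraction 11.0.1.1, from a design built on mm9. The deposited values used were the processed signal, a background-subtracted intensity, the median spot and background intensities, and 0 or 1 flags. The authors' own normalized value table has 6 columns whose names match no sample, and these were not used. Control spots and outlier spots were removed (17 to 29 outlier spots per array), processed signals were put on the log2 scale, and the 6 arrays were quantile normalized. The number of arrays limits the precision. Testing was limited to probes detected on each array of one or both groups in the comparison. The test was limma 3.58.1 in R 4.3.3 on the 4 arrays compared, with Benjamini-Hochberg adjustment over all probes tested, and calls needed an adjusted p under 0.05 and a fold above 2. The bounded fold of a dim group was left out where it was under 1. The members and lists were chosen with earlier results of these data known. Named probes were the called probes with the largest fold whose groups did not overlap (up to 10 per direction between IPC AAR and IPC RM, up to 5 otherwise, then those with the smallest unadjusted p), the 10 with the highest mean level, and those called in 2 or more comparisons. IPC AAR and IPC RM arrays were paired by mouse, per the labels, and the deviations of the mice in the 2 tissues correlated at -0.09 over 46232 probes. The code was tested on simulated data and recovered most large changes under noise like that fitted here, while a first simulation with smaller changes and more variable noise recovered none, so a probe not called may still differ. Alternatives were 75th percentile scaling, normexp background correction (offset 50) on median signals, a stricter and no filter, the methods' t-test, 1 fit of all 6 arrays, the mouse as a block, leaving out each array, and detection against the 99th percentile of negative-control spots. The slide could not be fitted as a block, since each slide held either IPC or sham arrays only.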

Additional observations from a re-analysis of the deposited data

How the results depend on the processing

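Between IPC AAR and IPC RM, 75th percentile scaling raised the AK probes called higher from 7 to 13, and normexp lowered the number called from 16 to 9 and the number lower from 9 to 4. Leaving out each array gave 9 to 19 called, 5 to 9 higher and 4 to 11 lower. With the mouse as replicate block, 16 were called, the same 16 probes, beside 19.6% of all tested probes. AK132675, AK090059, AK039249, AK053279, AK038804 and AK171860 were called under all 11 alternatives of this comparison. Between IPC AAR and sham AAR, normexp gave 5 called with 2 higher (all probes 6.08%), against 9 with 5 higher. Of these 5, AK007918 was not among the 9. Without normexp its IPC AAR minus sham AAR difference was -1.29 (limma adjusted p = 0.0556), and the groups did not overlap. AK007918 was also called under 75th percentile scaling, with the stricter filter and with all 6 arrays in 1 fit. With no filter and with the methods' t-test, 0 were called in either direction. Leaving out each array gave 0 to 20 called, 0 to 11 higher and 0 to 9 lower. Between IPC RM and sham AAR, leaving out each array gave 0 to 11 called, 0 to 3 higher and 0 to 8 lower, and the other alternatives gave 0. Against negative-control spots, 66.7% (IPC RM 004) and 58.1% (IPC RM 008) of AK probes were detected in place of 78.5 and 81.7%. Under 75th percentile scaling the IPC AAR minus IPC RM difference turned positive for AK215547 (0.95), AK188366 (0.48), AK210533 (1.15), AK217121 (0.92), AK182289 (0.53) and AK122515 (0.19). That of AK210533 also turned with normexp (0.0029), without IPC AAR 004 (0.061) and without IPC RM 008 (0.030), that of AK215547 without IPC AAR 008 (0.020) and that of AK182289 without IPC RM 004 (0.00026). Leaving out each array, these 3 ranged from -0.061 to 0.061, from -0.087 to 0.020 and from -0.090 to 0.00026. The cause of these changes was not tested. A lone array left in a group was assumed to vary like the other group. Counts against sham AAR, with 2 arrays a group and an uneven sham pair, changed with the array left out, and why they changed was not tested. A probe below background has no measured level.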

Other observations

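The AK probes differed in detection along the accession numbers, a grouping made after the values were seen and not tested. Of the 13 probes from AK180019 to AK217838, 11 were detected on all 6 arrays and 0 on none, and of the 80 earlier ones 44 were detected on all 6 and 11 on none. Of the 10 from AK080331 to AK089665, 2 were detected on all 6 and 3 on none. The 13 were also brighter, with a median level of 13.06 against 5.68 for the 80, so accession number and brightness cannot be told apart here. Between IPC AAR and IPC RM, 1 of the 13 and 15 of the 59 tested earlier probes were called, beside 20.6% of all tested probes. The median absolute log2 difference was 0.23 and 0.57. This contrast depended on the scaling: under 75th percentile scaling AK198651, AK210533 and AK216629 of the 13 were called, and AK201409 was not.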
